A study of Mus musculus with 9 samples.

Results

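The classical cadherins *Cdh1* (E-cadherin), *Cdh2* (N-cadherin) and *Cdh3* (P-cadherin), together with the atypical member *Cdh13* (T-cadherin), were followed in cultured salivary gland cells and oral keratinocytes. They were chosen by gene symbol and make up 4 of the 23366 gene entries counted. RNA-seq covered 9 libraries, 6 from mSGc and 3 from IMOK. mSGc is a line that immortalized spontaneously from submandibular glands of male C57BL/6 mice aged 12 weeks, and was sequenced as monolayers. Its libraries were P2, P4, P10 and P25 (the passage number) in a medium labelled progenitor, and P10 and P25 in a medium labelled differentiating. IMOK is a line of immortalised mouse oral keratinocytes, also C57BL/6, grown in a medium of its own, with 3 libraries numbered as replicates. The study grew mSGc in a serum-free and in a serum-containing medium, and the labels' progenitor and differentiating media are taken here to be these in that order.

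Classical cadherins are calcium-dependent adhesion molecules of the adherens junction. Their extracellular repeats bind cadherins on the neighbouring cell, and their cytoplasmic tails bind β-catenin or plakoglobin and p120-catenin, through which α-catenin connects the junction to actin. E-cadherin is the main cadherin of epithelia, P-cadherin accompanies it in basal and myoepithelial cells, and N-cadherin prevails in neural and mesenchymal cells. T-cadherin has no transmembrane or cytoplasmic part, is held in the membrane by a lipid anchor, and is a receptor for adiponectin.

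No mSGc condition had a second library, and nothing states that the IMOK libraries came from separate cultures, so p-values measure only the spread between these libraries. In each comparison of mSGc with IMOK, the line, the medium and the experiment change together and cannot be told apart. The labels give no passage for IMOK, but the study states that it matched that of P10 mSGc. With all mSGc libraries, passage therefore differs as well. Counted reads ran from 6237884 to 18444963 per library. IMOK replicate 1 stood apart, with a chi-square per degree of freedom of 159 and 190 against replicates 2 and 3, which differed from each other by 22.5. It also held 880 TPM of *Acta2*, a smooth muscle actin of myoepithelial cells, against 7.08 and 13.8 TPM in the other replicates. TPM, a level scaled by gene length and by the library, allows different genes to be compared. The epithelial labels fitted *Krt5*, *Krt14* and *Epcam*, which were at 307 TPM or more in every library. Some other epithelial markers ran lower, with *Krt15* at 2.66 to 19.5 TPM in IMOK, and *Krt19* and *Cldn3* down to 0.428 and 0.0931 TPM in mSGc. Endothelial markers summed to at most 1.18 TPM, and the pan-leukocyte gene *Ptprc* did not exceed 0.112 TPM. The 6 immune markers summed to 2.01 to 4.10 TPM in mSGc and 4.86 to 34.0 in IMOK, mostly *Cd68* (33.4 TPM in IMOK replicate 1).

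*Cdh1*, the defining cadherin of epithelial junctions, was the most abundant member in all 9 libraries. In progenitor medium its level was 544 TPM at P2, 723 at P4, 358 at P10 and 447 at P25. In differentiating medium it was 778 TPM at P10 and 749 at P25. IMOK replicates 1, 2 and 3 held 315, 258 and 283 TPM. The lowest mSGc library (P10 in progenitor medium) thus lay above the highest IMOK library, and the lines did not overlap. Of the 12885 genes tested in all mSGc against IMOK, 5.22% had this pattern. *Cdh1* outranked between 97.5% and 99.3% of all gene entries in a library.

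*Cdh3*, the cadherin of basal and myoepithelial layers, came next in every library. It was at 216 TPM at P2, 327 at P4, 289.7 at P10 and 359 at P25 in progenitor medium. In differentiating medium it was at 374 TPM at P10 and 469 at P25, and in IMOK at 226, 162 and 164 TPM. P2 lay below IMOK replicate 1, so the lines overlapped there and in no other mSGc library. *Cdh3* outranked between 95.4% and 98.9% of the gene entries.

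*Cdh13*, the lipid-anchored member, was lower and more uneven. It was at 35.5 TPM at P2, 40.4 at P4, 109.8 at P10 and 37.5 at P25 in progenitor medium, and at 56.3 and 40.1 TPM in differentiating medium at P10 and P25. The IMOK replicates held 15.5, 15.9 and 10.8 TPM. All 6 mSGc libraries lay above all IMOK libraries, as they did for 5.22% of the genes tested. P10 in progenitor medium stood 1.95-fold above the next highest mSGc library.

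*Cdh2*, the cadherin of neural and mesenchymal cells, was low outside 1 library. It reached 43.7 TPM at P2 (1075 counts) and was at 1.89 TPM at P4 (79 counts), 1.12 at P10 (24 counts) and 0.506 at P25 (20 counts) in progenitor medium. In differentiating medium it was at 5.17 TPM at P10 (152 counts) and had 0 counts at P25, which allows a level of up to 0.206 TPM. IMOK held 3.59, 2.50 and 3.84 TPM. The mSGc range therefore enclosed the IMOK range, and P2 stood 23.1-fold above P4.

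**Figure D1:**
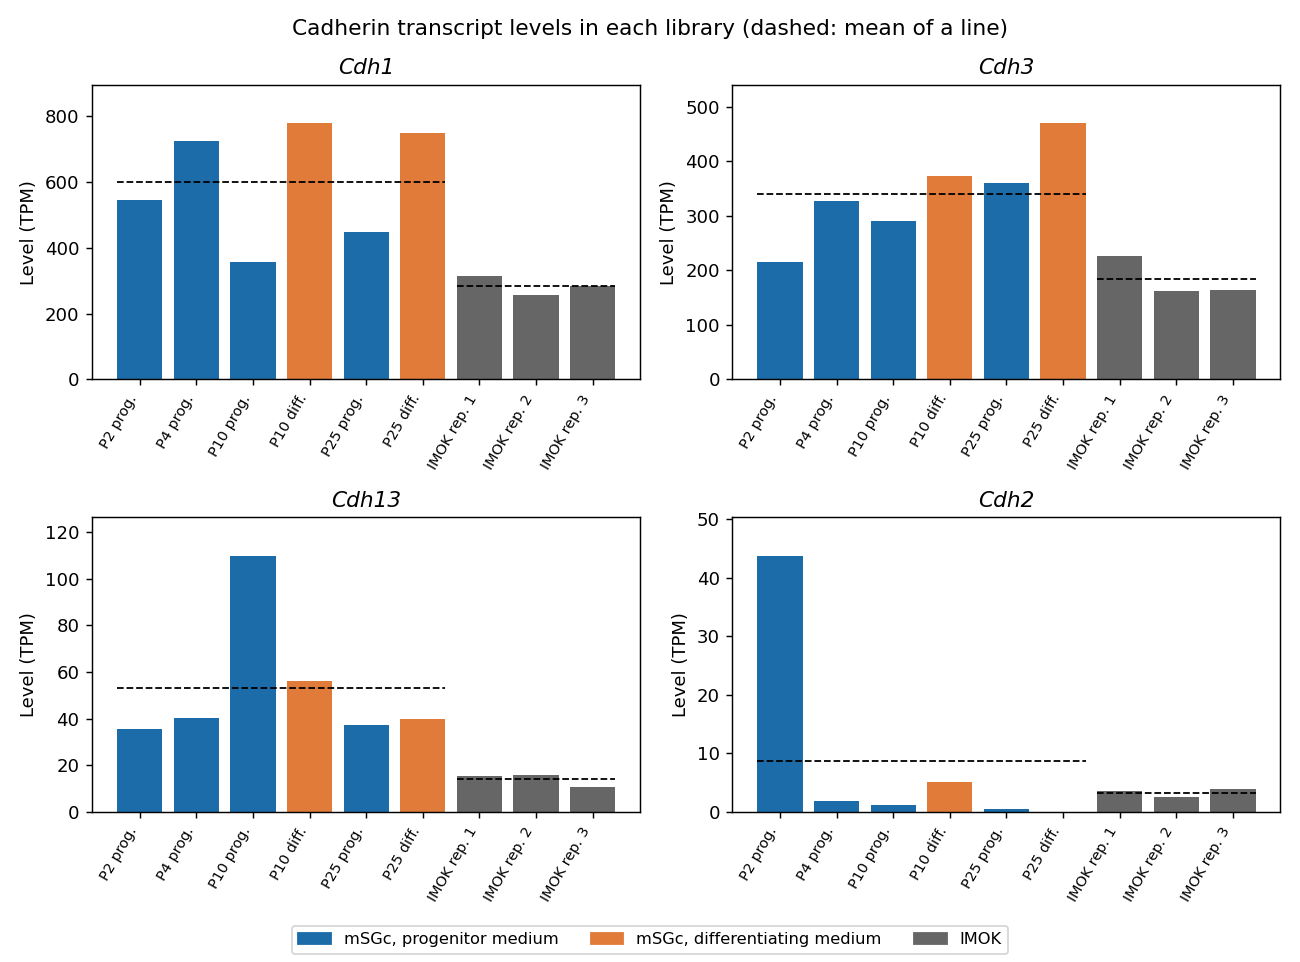
Level of each cadherin (vertical axis, TPM, each panel from 0 on its own scale) in each of the 9 libraries (bars; 1 library per bar; dashed lines are the mean over the libraries of a line). *Cdh1* and *Cdh13* are above all IMOK bars in every mSGc library, as are 5.22% of the genes tested. *Cdh3* is so except at P2, and *Cdh2* is high at P2 only, with 43.7 TPM.

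In order of level, *Cdh1* exceeded *Cdh3*, *Cdh13* and *Cdh2* in 8 of 9 libraries, and at P2 the last of these passed *Cdh13*. Mean levels were 599.7 ± 176 TPM for *Cdh1* and 339 ± 85.3 for *Cdh3* in mSGc (SD, n = 6), whose ranges overlapped between libraries although *Cdh1* was higher within each one. In IMOK they were 285 ± 28.6 TPM and 184 ± 36.6 (SD, n = 3), without overlap. *Cdh13* averaged 53.2 ± 28.7 TPM in mSGc and 14.1 ± 2.81 in IMOK, clear of both neighbours in the order except where *Cdh2* exceeded it at P2.

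Of the summed level of the 4 genes, *Cdh1* held from 47.2% (P10 in progenitor medium) to 66.2% (P4), and *Cdh3* from 25.7% (P2) to 42.6% (P25 in progenitor medium). *Cdh13* held 14.5% at P10 in progenitor medium and between 2.35% and 4.64% elsewhere. *Cdh2* held 5.21% at P2 and at most 0.833% elsewhere, the latter in IMOK replicate 3. *Cdh1* was 1.24 to 2.52 times as abundant as *Cdh3* in mSGc and 1.39 to 1.73 times in IMOK, and within mSGc both libraries of progenitor medium from P10 on had ratios of 1.24.

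**Figure D2:**
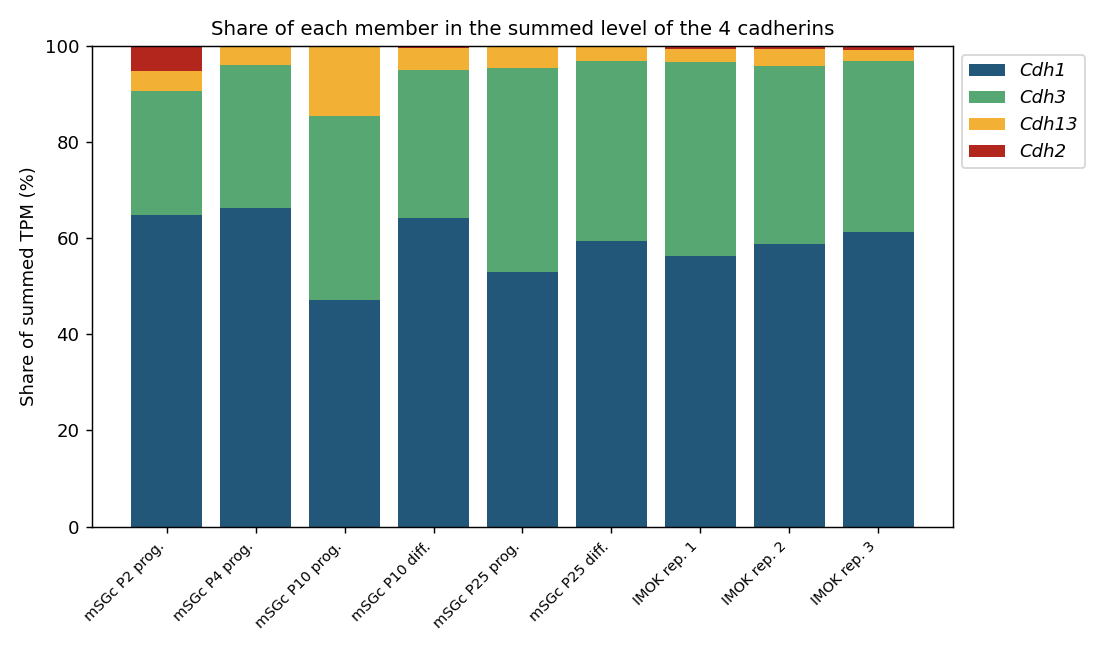
Share of each member in the summed TPM of the 4 cadherins (vertical axis, percent) in each library (stacked bars, 1 library each). *Cdh1* and *Cdh3* together fill most of every bar, *Cdh13* reaches 14.5% at P10 in progenitor medium, and *Cdh2* is visible at P2 with 5.21%.

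Whether the balance of cadherins differed between the lines was tested on ratios within a library, which do not depend on the scaling between libraries. The log2 ratio of *Cdh3* to *Cdh1* was -0.81 ± 0.44 in mSGc (SD, n = 6) and -0.65 ± 0.16 in IMOK (SD, n = 3), a difference of -0.16 with p = 0.548 in a two-sided exact permutation test. For *Cdh13* to *Cdh1* the log2 ratio was -3.56 ± 0.94 against -4.35 ± 0.34, with p = 0.0952 by the same exact test and 0.286 after adjustment over the 3 ratios. For *Cdh2* to *Cdh1* it was -8.32 ± 3.01 against -6.41 ± 0.24, with an exact p of 0.333 (adjusted 0.500), after 0.1 TPM was added to both genes. None of the ratios passed the test. The libraries can be split into 6 and 3 in 84 ways. This is too few for a single ratio to pass alone after adjustment, even if it separated the lines completely. Not passing therefore does not show that the balance was the same. The ranges of the lines overlapped in each of the 3 ratios.

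The study compared the lines at P10, and there 1 of the 4 members, *Cdh13*, was called higher in mSGc at an adjusted p under 0.05 (edgeR's quasi-likelihood test, Benjamini-Hochberg method), where 4.2% of the 13018 genes tested were called and 2.34% were higher. *Cdh13* was higher by 2.76 on the log2 scale (SE 0.37, adjusted p = 0.0254 by edgeR), with both mSGc libraries above all 3 IMOK libraries. The call was lost without either P10 library or without IMOK replicate 2 or 3, at adjusted p-values of 0.0688 to 0.114 by edgeR, with a log2 fold change of 2.08 to 3.21. Without a P10 library the spread comes from IMOK alone, the lone mSGc library is assumed to vary like it, and 0 genes were called in either fit by edgeR (2343 and 2163 at an unadjusted p under 0.05), so no call could be kept. *Cdh3* and *Cdh1* had log2 fold changes of 1.03 (SE 0.22, edgeR adjusted p = 0.0627) and 1.14 (SE 0.34, edgeR adjusted p = 0.113). Neither passed, although both P10 libraries lay above all IMOK libraries for 3 of the 4 members, a pattern that 16.3% of the genes tested shared. Without IMOK replicate 1, *Cdh3* passed with a log2 fold change of 1.12 (edgeR adjusted p = 0.0174) and *Cdh1* did not (1.14, edgeR adjusted p = 0.0719), and DESeq2, which called 17.2% of genes, called both with every library in. *Cdh2* had a log2 fold change of 0.058 with a 95% confidence interval from -1.57 to 1.69. Its sign turned to -1.32 without P10 in differentiating medium.

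With all 6 mSGc libraries, 3 of the 4 members were called higher than in IMOK, against 14.9% of the 12885 genes tested, 6.58% of them higher. *Cdh13* was higher by 2.14 on the log2 scale (SE 0.39), a 4.40-fold difference (adjusted p = 0.00684, edgeR's quasi-likelihood test). *Cdh1* was 2.44-fold higher (log2 1.29, SE 0.27, edgeR adjusted p = 0.0132) and *Cdh3* 2.18-fold (log2 1.13, SE 0.27, edgeR adjusted p = 0.0209). *Cdh1* and *Cdh13* showed no overlap between the lines, as did 5.22% of the genes tested in this direction. DESeq2 called the same 3 members and 22.8% of all genes. *Cdh13* stayed called without any single library, with adjusted p-values of 0.00149 to 0.0374 by edgeR. *Cdh1* lost its call without IMOK replicate 2 (edgeR adjusted p = 0.0724) or 3 (edgeR adjusted p = 0.0501), and *Cdh3* likewise (edgeR adjusted p = 0.105 and 0.0812). All 3 calls held without IMOK replicate 1, at log2 fold changes of 1.30 for *Cdh1*, 1.23 for *Cdh3* and 2.15 for *Cdh13* (edgeR adjusted p = 0.0312, 0.0341 and 0.0211). These genes are among those the study listed as enriched in mSGc partly from these libraries, so their direction in both comparisons is not independent evidence.

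*Cdh2* was not called in the same comparison, with a log2 fold change of 1.52 (SE 1.49) and a 95% confidence interval from -1.78 to 4.82. Without P2 the value was -0.76 (edgeR adjusted p = 0.659), so its direction rested on that library.

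**Figure D3:**
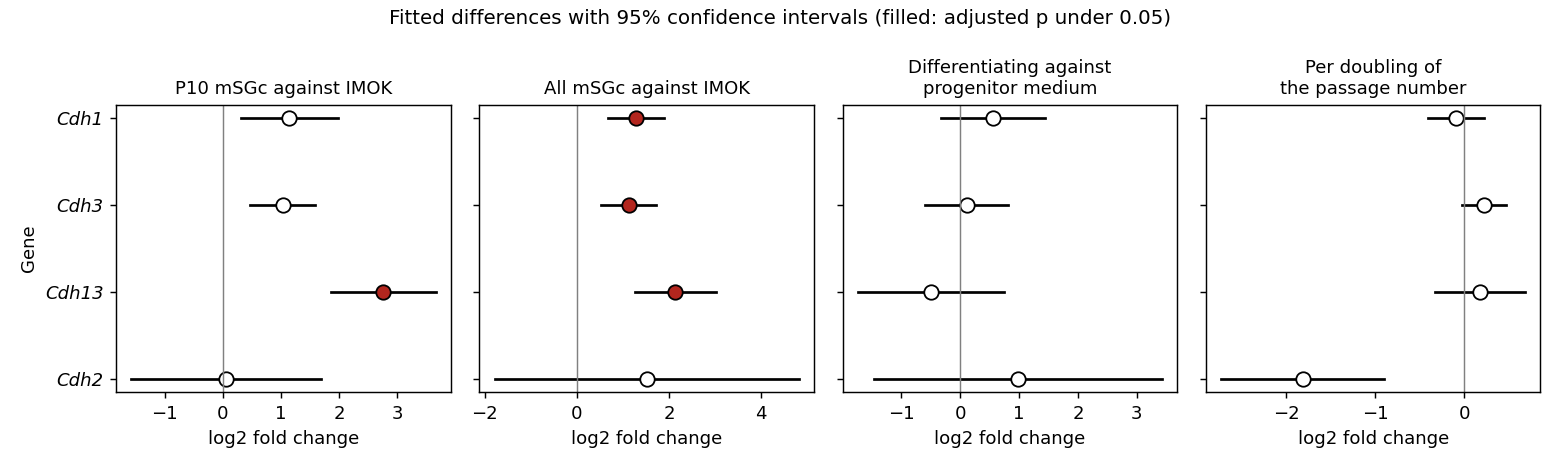
Fitted log2 fold changes of the 4 cadherins (points; horizontal axis, log2 scale; lines are 95% confidence intervals) for both comparisons with IMOK, for medium and for passage within mSGc; filled points have an adjusted p under 0.05. *Cdh13* is filled in both comparisons with IMOK, *Cdh1* and *Cdh3* when all mSGc libraries are used, and no point is filled for medium or passage.

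*Cdh3*, *Cdh1* and *Cdh13* share chromosome 8 (mm9, plus strand). *Cdh3* spans 109034791 to 109080808 and *Cdh1* 109127268 to 109194146, 46.5 kb further on, and counts were summed over 16 exon intervals of each. *Cdh13* lies 11.6 Mb beyond, at 120807655 to 121847348, with 14 counted exon intervals spread over 1039694 bases. *Cdh2* is on chromosome 18 and overlaps a non-coding transcript of the other strand, *Gm15485*, with 0 counted bases in common.

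Genes of chromosome 8 as a whole lay higher in mSGc than other genes. The median log2 fold change of all mSGc against IMOK was 0.35 over the 709 chromosome 8 genes tested and -0.0083 over the 12176 others, and at P10 it was 0.33 over 711 genes and -0.029 over 12307. In all mSGc, 477 of the 709 were positive, with 105 called higher and 29 lower by edgeR. Of the 12176 others, 5986 were positive, with 743 called higher and 1041 lower. At P10, 477 of 711 and 5958 of 12307 were positive. Around *Cdh3* and *Cdh1*, all 20 of the nearest tested genes, 10 on either side, lay higher in all mSGc on the log2 scale. Their median was 0.81, and 6 were called higher and 0 lower by edgeR (19 of 20 positive and a median of 0.60 at P10). Some exceeded both members in all mSGc, among them *1810019D21Rik* at 2.61 and *Pla2g15* at 2.60. The nearest tested genes on either side of the pair, *Zfp90* and *Tango6*, had log2 fold changes of 0.52 and 0.29, and neither was called. Around *Cdh13*, 16 of 20 were positive with a median of 0.53, and 5 were called higher and 2 lower. Its nearest tested neighbours *Mphosph6* and *Hsbp1* had 0.88 and 0.98, of which the second was called (edgeR adjusted p = 0.0120).

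Relative to the median of the other chromosome 8 genes, the log2 fold changes in all mSGc were 0.94 for *Cdh1*, 0.77 for *Cdh3* and 1.79 for *Cdh13*. Relative to the median of the 20 neighbours they were 0.48, 0.32 and 1.60. All 3 stayed positive on both scales, and the values of *Cdh1* and *Cdh3*, whose neighbours had the higher median, shrank most. The study's karyotype of early passage mSGc found some abnormalities of chromosomes 8 and Y. The part of the chromosome in these differences was not tested.

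**Figure D4:**
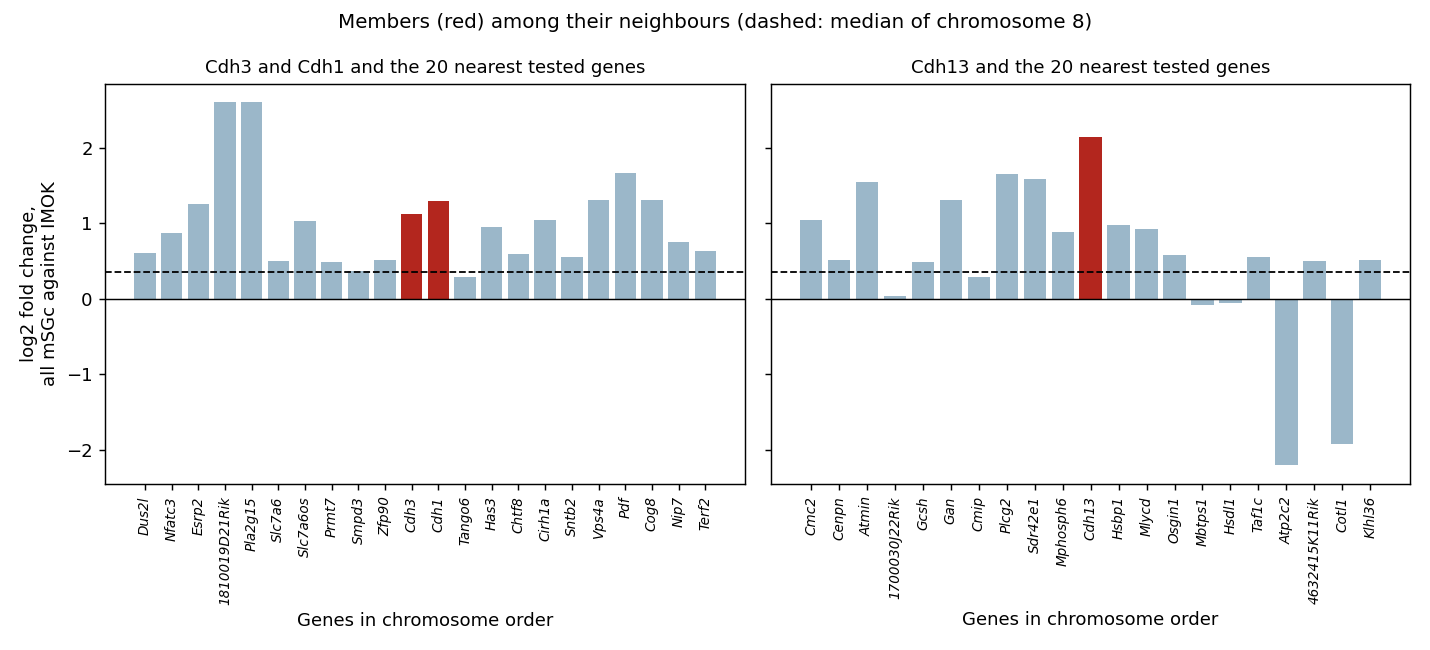
Log2 fold change of all mSGc against IMOK (vertical axis, log2 scale) for *Cdh3* and *Cdh1* (left, red) and *Cdh13* (right, red) and for the 20 nearest tested genes of each (pale bars, in chromosome order); the dashed line is the median of chromosome 8, 0.35. Every neighbour of *Cdh3* and *Cdh1* is above 0, and some exceed both, with *1810019D21Rik* highest at 2.61. *Cdh13* exceeds each of its neighbours.

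Within mSGc, 0 of the 4 members were called for medium by edgeR's quasi-likelihood test and 0 by DESeq2, and 0 had an unadjusted p under 0.05, as 8.18% of genes had. Calls were rare here, at 0.0241% of the 12451 genes tested by edgeR and 2.23% by DESeq2. *Cdh1* was 2.17-fold higher in differentiating than in progenitor medium at P10 and 1.68-fold at P25. Its log2 fold change in the joint fit with passage was 0.56 with a 95% confidence interval from -0.32 to 1.44 (edgeR adjusted p = 0.800). *Cdh3* was 1.29-fold and 1.31-fold higher at P10 and P25, with a fitted interval from -0.59 to 0.81. *Cdh13* was 1.95-fold lower in differentiating medium at P10 and 1.07-fold higher at P25. *Cdh2* was 4.60-fold higher at P10 and at least 2.46-fold lower at P25, a bound at 3 counts per library. In P10 and P25 libraries alone, with passage as a block, *Cdh1* was higher by 0.78 on the log2 scale (edgeR unadjusted p = 0.0206, adjusted p = 0.307).

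For the trend with passage, 0 of the 4 members were called by edgeR, where 0.49% of the genes tested were, and 0 by DESeq2, where 5.62% were. At an unadjusted p under 0.05 there was 1 member, *Cdh2*, against 13.2% of the genes tested. Its slope was -1.81 on the log2 scale per doubling of the passage number (SE 0.39, edgeR adjusted p = 0.109) and -1.18 without P2. *Cdh3* had a slope of 0.22 with a 95% confidence interval from -0.028 to 0.47 (edgeR adjusted p = 0.431). Its level was lowest at P2 and highest at P25 in differentiating medium. The slopes of *Cdh1* and *Cdh13* were -0.091 (interval from -0.40 to 0.22) and 0.18 (interval from -0.33 to 0.69).

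The library with high *Cdh2* also held the most RNA of fibroblast and myoepithelial markers among mSGc. The 8 fibroblast markers summed to 23.1 TPM at P2 and to between 0.320 and 4.48 TPM in the other mSGc libraries (1.34 to 6.71 in IMOK). At P2 *Col1a2* was at 9.88 TPM, *Col1a1* at 6.68 and *Thy1* at 3.92, while *Lum* had 0 counts. *Dcn* and *Col3a1* were higher elsewhere, *Dcn* at 3.79 TPM in differentiating medium at P10 against 0.816 at P2, and *Col3a1* at 2.29 TPM in differentiating medium at P25 against 1.02 at P2. The 6 myoepithelial markers summed to 769 TPM at P2 and to 8.04 to 125 TPM in the others. *Acta2* was at 544 TPM at P2, *Tagln* at 199 and *Cnn1* at 21.2. IMOK replicate 1 held 961 TPM of these, with *Cdh2* at 3.59 TPM. The luminal sum was highest at P2 as well, at 14800 TPM. The 6 Schwann and neural markers instead summed to most at P4, with 46.7 TPM against 28.4 at P2, of which *Tubb3* made up 42.6 and 22.3 TPM. The part of any of these cells in the *Cdh2* level was not tested, and in bulk RNA fewer cells of a type and less RNA per cell cannot be told apart.

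The catenins are the cytoplasmic partners of the classical members. Of 8 listed, 6 were tested and 0 were called by edgeR in any of the 4 comparisons. At an unadjusted p under 0.05 there were 1 in all mSGc against IMOK, 1 for medium, 3 for passage and 0 at P10, beside 30.4%, 8.18%, 13.2% and 24.9% of all genes tested. DESeq2 called 1 in all mSGc and 2 for passage, beside 22.8% and 5.62%. β-catenin (*Ctnnb1*) and α-catenin (*Ctnna1*) had the highest mean levels, at 363 to 648 and 171 to 361 TPM in mSGc and 423 to 579 and 267 to 293 TPM in IMOK. Their log2 fold changes in all mSGc were 0.19 (SE 0.18) and 0.12 (SE 0.20). *Jup* (plakoglobin) had 0.63 (SE 0.23, edgeR adjusted p = 0.0897). The median over the catenins tested was 0.16, beside 0.0023 over all genes tested.

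Summed within a library, *Cdh1* and *Cdh3* amounted to 1.17 times the *Ctnnb1* level at P2, 2.09 at P4, 1.44 at P10 and 2.22 at P25 in progenitor medium. In differentiating medium the multiple was 2.15 at P10 and 2.94 at P25, and in IMOK it was 0.935, 0.882 and 1.05. Over *Ctnna1* the multiple was 2.105 to 4.85 in mSGc and 1.56 to 1.85 in IMOK, and over *Jup* 3.67 to 4.78 and 2.58 to 3.42. The lines did not overlap in these 3 ratios. Over *Ctnnd1* (p120-catenin) they did, with 1.77 to 5.99 in mSGc and 1.73 to 2.72 in IMOK, where P2 lay below IMOK replicates 2 and 3. These ratios were chosen after the values were seen and have no test. *Cdh1*, the larger part of each sum, did not overlap between the lines either, so the ratios are not separate from that difference. No share over all genes was computed for such ratios.

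Nectins are a further family of adhesion molecules at the junction, coupled to actin by afadin. Of 12 nectins, afadin and actin linkers, all tested, 0 were called by edgeR in any comparison, and 4 reached an unadjusted p under 0.05 in all mSGc against IMOK (6 for passage, 4 for medium and 0 at P10), beside 30.4%, 13.2%, 8.18% and 24.9% of all genes. DESeq2 called 1 of them in all mSGc and 5 for passage, and the median log2 fold change in all mSGc was 0.080. The actin crosslinkers *Actn1* and *Actn4* had the highest mean levels, at 191 to 762 TPM and 243 to 656 TPM in mSGc. The 5 genes of cadherin shedding and turnover gave 0 calls by edgeR and 0 by DESeq2 in all 4 comparisons, with 1 at an unadjusted p under 0.05 in all mSGc (30.4% of all genes) and a median there of 0.25. The protease *Adam10*, which sheds E-cadherin, was at 35.0 to 81.3 TPM in mSGc and 84.7 to 98.5 in IMOK.

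Among 8 repressors of *Cdh1*, at most 6 were tested in a comparison and 0 were called by edgeR. At P10, for medium and for passage 1 each had an unadjusted p under 0.05 (24.9%, 8.18% and 13.2% of all genes). DESeq2 called 1 at P10 and 1 for passage (17.2% and 5.62% of all genes), with a median log2 fold change of -0.18 in all mSGc. *Tcf3* (E2A) and *Snai2* (Slug) had the highest mean levels, at 67.8 to 89.9 and 33.1 to 97.7 TPM in mSGc and 93.5 to 104 and 66.1 to 95.2 TPM in IMOK. *Snai2* was highest among mSGc at P10 in progenitor medium, the library with the lowest *Cdh1*. *Zeb1* and *Zeb2*, classical repressors in mesenchymal cells, were at 1.89 and 1.35 TPM at P2. In the other mSGc libraries they were at most at 0.211 and 0.262 TPM. *Snai1* was also highest among mSGc at P2, at 1.19 TPM. *Twist1* ran the other way, at 0.811 TPM at P2, 1.02 at P4 and 10.4 to 24.97 in the P10 and P25 libraries. Its slope with passage was 1.31 (SE 0.34, edgeR adjusted p = 0.167). *Twist2* was at 0 TPM at P2 and in both P10 libraries, with a log2 fold change of -7.76 at P10 against IMOK (edgeR adjusted p = 0.130). Of 10 epithelial activators, 9 were tested, and *Esrp2*, an epithelial splicing regulator also on chromosome 8, was called higher in all mSGc by 1.26 on the log2 scale (SE 0.27, edgeR adjusted p = 0.0147). This was the only call by edgeR among the activators in the 4 comparisons, their median in all mSGc was 0.40, and *Esrp2* was among the 20 neighbours of *Cdh3* and *Cdh1*. Activators at an unadjusted p under 0.05 numbered 4 at P10, 4 in all mSGc, 3 for medium and 2 for passage. The shares of all genes were 24.9%, 30.4%, 8.18% and 13.2%. DESeq2 called 3, 4, 2 and 1 activators in that order, beside 17.2%, 22.8%, 2.23% and 5.62% of all genes.

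Of 19 other cadherins, 14 stayed under 1 TPM in all 9 libraries and 7 had 0 counts throughout. *Cdh6*, a cadherin of developing kidney, was at 16.4, 6.35 and 11.8 TPM in IMOK. It had 0 counts in both P10 libraries of mSGc and was at least 46.4-fold lower there than the IMOK mean and at least 25.6-fold lower than the lowest IMOK library, bounds set at 3 counts per library (edgeR adjusted p = 0.0222). Over all mSGc it was at 0.359 TPM at P2 and 0 elsewhere (edgeR adjusted p = 0.00208). *Cdh10*, *Cdh11*, *Cdh24* and *Cdh26* also reached 1 TPM in some library and none exceeded 7.86 TPM. For *Cdh13*, adiponectin (*Adipoq*) had 0 counts in all mSGc libraries, while the receptors *Adipor1* and *Adipor2* were at 172 to 207 and 29.6 to 50.7 TPM with 0 of 2 called by edgeR or DESeq2 in any comparison and 0 at an unadjusted p under 0.05.

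Markers of basal and luminal cells were set beside the cadherins. Of 6 basal markers, *Krt15*, *Krt14* and *Itgb4* were called higher in all mSGc than in IMOK, where 6.58% of the genes tested were. Their log2 fold changes were 4.63 (SE 1.06), 1.27 (SE 0.33) and 0.99 (SE 0.29), with edgeR adjusted p = 0.0177, 0.0297 and 0.0448. *Krt15* was also called at P10, where 2.34% of genes were higher. *Itga6* and *Trp63* had negative values, -0.57 (SE 0.24) and -0.44 (SE 0.38), and *Krt5* had 0.70 (SE 0.52), none of them called. The median over the basal markers in all mSGc was 0.84, and over the luminal markers 1.63. Of 7 luminal markers, 0 were called by edgeR in all mSGc. *Krt7*, *Krt8*, *Krt18* and *Cldn3* had positive values there, and *Epcam*, *Krt19* and *Cldn4* negative ones (-0.62, -1.89 and -0.67). *Cldn3* was called higher at P10. *Cldn4* fell by 1.17 per doubling of the passage number (SE 0.13, edgeR adjusted p = 0.0332), where 0.49% of genes were called. For passage, 6 luminal markers had an unadjusted p under 0.05 and DESeq2 called 6 (13.2% and 5.62% of all genes). The luminal markers summed to 2245 to 14800 TPM in mSGc and 3091 to 5175 TPM in IMOK. Within mSGc this sum was lowest in the same pair of libraries as *Cdh1*, P10 and P25 in progenitor medium. *Cnn1*, a myoepithelial marker, fell with passage by 3.72 (SE 0.38, edgeR adjusted p = 0.0382). It was at 21.2 TPM at P2, 1.51 at P4 and 0 in the later mSGc libraries. *Mylk* was lower in all mSGc by 3.44 (SE 0.75, edgeR adjusted p = 0.0150). The other myoepithelial markers tested there, *Acta2*, *Tagln* and *Cnn1*, had -0.93, 0.93 and 3.48 and were not called. The median over the myoepithelial markers tested was 0.00073. *Ncam1*, a neural adhesion molecule, was called lower in both comparisons with IMOK, and *Cd68*, the only immune marker tested, in all mSGc. Fibroblast and endothelial markers gave 0 calls by edgeR, with 1 fibroblast marker at an unadjusted p under 0.05 at P10, 1 in all mSGc and 2 for passage (24.9%, 30.4% and 13.2% of all genes). DESeq2 called 1 fibroblast marker for passage (5.62% of all genes).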

How the data were processed

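Per the labels, libraries were made from total RNA with a TruSeq kit. The authors aligned reads to mm9 and deposited 2 tables of raw, unnormalized counts by gene. The submitters' processing notes name TopHat2 2.1.1, Bowtie2 2.2.6, featureCounts 1.5.1 and DESeq2 1.12.4. The annotation and strandedness are not given in the sources used here. The deposited gene lengths were used to turn counts into TPM. Tests used R 4.3.3 with edgeR 4.0.16 (quasi-likelihood test, TMM, default filterByExpr filter, Benjamini-Hochberg adjustment over all genes tested), and standard errors are the absolute log2 fold change over the square root of F. Medium and log2 passage number were fitted together. Alternatives used DESeq2 1.42.0, limma 3.58.1 (voom), other filters and scalings, and leaving out each library. Descriptions used scipy 1.17.1, numpy 2.4.6 and pandas 2.3.3 under Python 3.11.15. The scripts recovered known changes in data simulated from these libraries without a wrong direction. The share recovered and the number of false calls are not given here, so power and error control are not shown.

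The design planned log2 ratios of TPM. As *Cdh2* had 0 counts in 1 library, 0.1 TPM was added, a value chosen after seeing the data, as was centring on neighbouring genes. A count of 0 allows up to 3 counts (0.163 to 0.481 CPM), which covers counting error only. Of the entries, 25 have names turned into dates.

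Genes named are the 4 cadherins, list members past the threshold or else the most abundant pair, the adjacent genes on the chromosome, and for each cadherin the 3 genes with the highest Pearson r over mSGc. Others (such as *Adam10*, *Zeb1*, *Jup* and single markers) were named after their values were seen. The members and lists were chosen with earlier results of these data known.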

Additional observations from a re-analysis of the deposited data

Results flagged for a closer look

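*Cdh2* at P2 (43.7 TPM) and *Cdh13* at P10 in progenitor medium (109.8 TPM) lay far from the other mSGc libraries, by the gap to the nearest library relative to the whole range. The log2 ratio of *Cdh13* to *Cdh1* at P10 in progenitor medium, -1.70, was set apart in the same way. Chance gives such a gap in about 1 in 20 groups, and the 6 mSGc libraries are different conditions rather than replicates.

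Some differences within mSGc pointed opposite ways, each between single libraries, and the contrast itself was not tested. *Cdh1* at P25 minus P10 was 89.0 TPM in progenitor and -28.5 TPM in differentiating medium. *Cdh2* in differentiating minus progenitor medium was 4.05 TPM at P10 and -0.506 TPM at P25. For *Cdh13* the same difference was -53.4 TPM at P10 and 2.60 TPM at P25.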

How the results depend on the processing

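Limits: with 2 libraries against 3, and with 1 library per mSGc condition, the number of genes called depended on the test, the filter and the libraries. Replicate numbers exist for IMOK only and pair no libraries. Medium was paired by passage in P10 and P25 alone. Causes of the changes below were not tested.

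Genes called at P10 against IMOK numbered 547, 2231 by DESeq2, 272 with at least 10 counts in every library and 0 to 3416 when a library was left out (most without IMOK replicate 1, 0 without either P10 library). In all mSGc they numbered 1918 (848 higher, 1070 lower), 2905 by DESeq2 and 738 to 1918 with a library left out, fewest without IMOK replicate 2 and 943 without replicate 3; without TMM factors 663 were higher and 1373 lower, as the median of all genes moved from 0.0023 to -0.10. For medium they numbered 3, 272 by DESeq2, 36 without a filter, 1 with at least 10 counts, 0 by voom, 123 in P10 and P25 alone, and 0 to 58 with a library left out. For passage they numbered 61, 700 by DESeq2, 161 without a filter, 3 with at least 10 counts, 126 on the untransformed number, 31 in progenitor medium only, and 0 to 329 with a library left out.

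At P10, DESeq2 called *Cdh1* (1.11, adjusted p = 0.0148) and *Cdh3* (1.00, adjusted p = 0.000167). Leaving out libraries gave 0.57 to 1.52 for *Cdh1*, 0.91 to 1.12 for *Cdh3*, 2.08 to 3.21 for *Cdh13* and -1.32 to 0.72 for *Cdh2*, which was also -0.019 without TMM factors and -0.11 by voom. In all mSGc the ranges were 1.20 to 1.40, 1.01 to 1.24, 1.80 to 2.25 and -0.76 to 1.78, and voom gave -0.64 for *Cdh2*. For medium, *Cdh2* ran from -6.26 to 2.43 and *Cdh13* from -1.19 to 0.16. For passage, *Cdh13* ran from -0.077 to 0.54 and was -0.0034 per passage untransformed. Centred on chromosome 8 at P10, *Cdh1*, *Cdh3* and *Cdh13* were at 0.82, 0.70 and 2.43, and in all mSGc at 0.94, 0.77 and 1.79. Centred on 20 neighbours, *Cdh1* and *Cdh3* were at 0.54 and 0.43 at P10, and all 3 at 0.48, 0.32 and 1.60 in all mSGc. No ratio between members passed or changed sign under any alternative. Without an IMOK library too few splits remain for any ratio to pass. Without an mSGc library, as with every library in, a single ratio could not pass alone. Not passing in these settings therefore says nothing about robustness. *Cdh2* had no value by DESeq2 in all mSGc and under the filter of 10 counts in 3 of the fits.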

Other observations

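Over the 6 mSGc libraries, each cadherin had its own set of genes with a like profile, by Pearson's r of log2(TPM + 1) among 9909 genes with a mean of at least 5 TPM. These values describe 6 libraries that differ in passage and medium, and no test was made of them. *Cdh1* was followed most closely by *Slc10a3* (r = 0.981), *Ubl4* (0.977) and *Ncoa5* (0.975), and *Cdh3* by *Cc2d1a* (0.997), *Msh6* (0.990) and *1700066M21Rik* (0.986). *Cc2d1a* is itself on chromosome 8, and *Msh6* encodes a mismatch repair protein.

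*Cdh13* was followed most closely by *Ddit4* (0.995), a gene induced by glucocorticoids and hypoxia, and by *Rxrb* (0.993) and *Reep6* (0.989). The lowest mSGc library held 399 TPM of *Ddit4* and the highest IMOK library 228 TPM, so that the lines did not overlap, as for *Cdh13*. Such a lack of overlap, with mSGc higher, held for 5.22% of the genes tested. The lines did overlap for *Rxrb* (35.8 to 56.2 TPM in mSGc and 32.0 to 68.7 in IMOK) and for *Reep6* (3.85 to 69.1 and 23.6 to 40.2). *Cdh2* was followed by *Lif* (0.998), a cytokine, *Mien1* (0.995) and *Scly* (0.993). At an r of 0.95 or more there were 12 genes for *Cdh1*, 33 for *Cdh3*, 38 for *Cdh13* and 92 for *Cdh2*. Spearman's rho takes few values over 6 libraries, and 19 genes for *Cdh1*, 23 for *Cdh3*, 9 for *Cdh13* and 63 for *Cdh2* were at or above the value of rho that would set the top 3, so it could not rank them. *Cdh1* and *Cdh3*, 46.5 kb apart, had an r of 0.46 with each other.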
